A study of Homo sapiens with 6 samples.

Results

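THBS1, NFIB, RUNX1, FLI1, MEIS1, ITGA2B, PLEK, CD9, CD36 and PDGFA are 10 genes associated with megakaryocytes and platelets. They were chosen by name and matched through their Ensembl gene IDs, which gave 10 of the 58288 gene rows. A megakaryocyte is the large bone marrow cell that sheds platelets, and it shares a bipotent progenitor with the erythroid lineage. RUNX1, FLI1 and GATA1 are transcription factors of its maturation programme, whereas MYB keeps progenitors proliferating and is known to restrain megakaryocyte formation. K562 is an established erythroleukemic line that can be driven towards either erythroid or megakaryocytic features.

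RNA was sequenced from K562 cells that stably expressed a tagged MYB (3xFLAG at one end, HA at the other) and were kept under 200 µg/ml G418. The 2KR-MYB rescue carries a protein whose SUMO acceptor lysines are replaced by arginine, so that SUMO cannot be conjugated to it. The ANAA-MYB rescue carries a protein with a mutated SUMO interaction motif, which abolishes SUMO binding. In both, endogenous MYB was targeted in its 3′ UTR with the same siRNA (si2992), and RNA was taken after 24 h, with 3 libraries for each rescue. Each rescue is 1 single-cell clone, so the mutation and the clone cannot be told apart, and p-values measure the spread between libraries of 1 clone against the other. The control, knockdown and other rescue columns were not used here. Values are FPKM (fragments scaled by transcript length and by the mapped fragments of the library), and all differences below are 2KR-MYB minus ANAA-MYB.

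MYB itself was looked at first. The 2KR-MYB libraries had 69.0, 61.2 and 67.5 FPKM of it and the ANAA-MYB libraries 53.6, 55.3 and 62.0 FPKM. The ranges overlapped and the difference of 0.21 on log2(FPKM + 1) did not pass the test (limma adjusted p = 0.062), with an adjusted p between 0.026 and 0.17 over all settings tried. The FPKM value does not separate endogenous from construct-derived transcript, so it does not check the siRNA. Sums of FPKM ran from 579920 to 633662 over the 6 libraries.

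The 10 genes covered a wide range of abundance. RUNX1 had the highest mean, 17.1 FPKM over the 6 libraries, and was the only one above 10 FPKM. ITGA2B followed at 2.80, then MEIS1 at 1.51, THBS1 at 1.34 and NFIB at 1.20 FPKM. The 5 others stayed under 1 FPKM: PDGFA had a mean of 0.924, CD9 0.446, PLEK 0.144, CD36 0.0643 and FLI1 0.0476 FPKM. From ITGA2B down to CD9, each gene's library values overlapped those of the next gene in this order, and CD36 and FLI1 overlapped as well. The median tested gene had a mean of 13.6 FPKM, so 9 of the 10 genes were expressed below the typical tested gene.

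The order was not the same in the 2 rescues. In the 2KR-MYB rescue NFIB (mean 1.65 FPKM) ranked above THBS1 (0.703), whereas in the ANAA-MYB rescue THBS1 (1.98) ranked above NFIB (0.738). Within each rescue the library values of these 2 genes did not overlap.

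**Figure D1:**
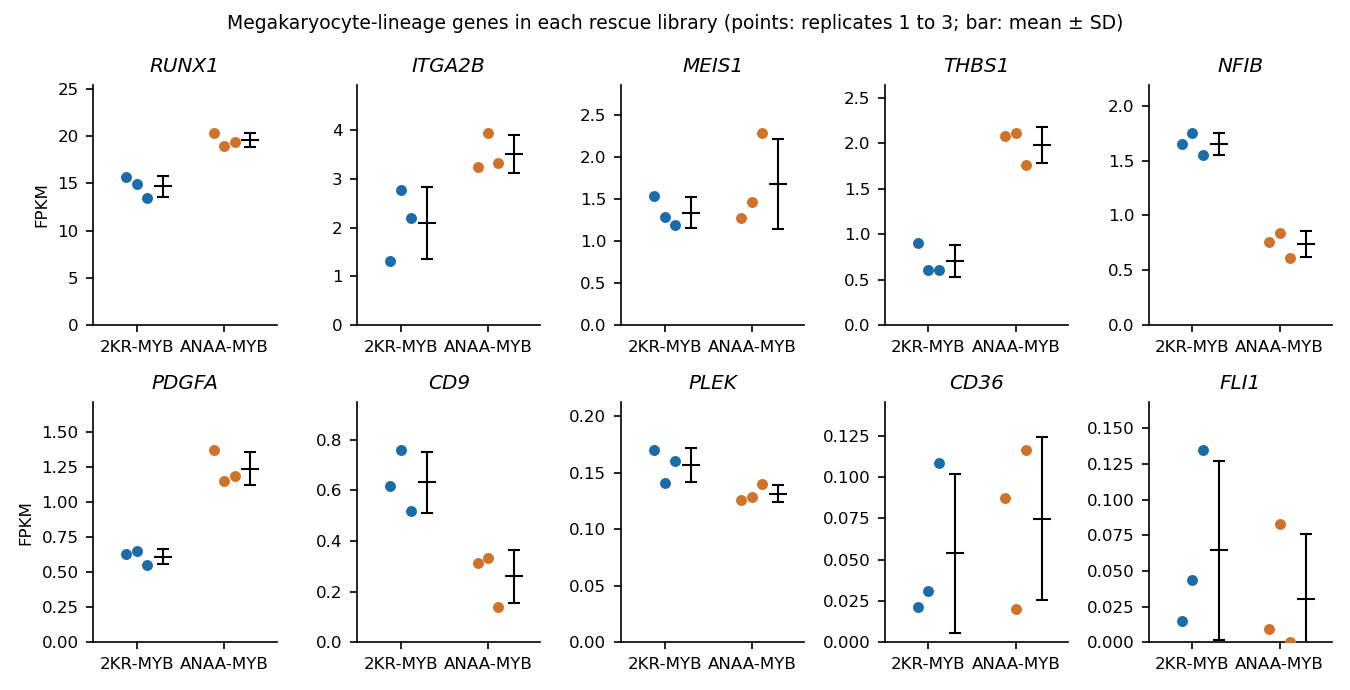
FPKM of each of the 10 genes in the 3 libraries of the 2KR-MYB rescue (blue) and the 3 of the ANAA-MYB rescue (orange), with the mean and SD in black; each panel has its own linear axis from 0. The libraries of the 2 rescues lay fully apart for 7 genes and overlapped for MEIS1, CD36 and FLI1.

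The test, limma on log2(FPKM + 1), took in the 12634 genes whose 6 libraries averaged 1 FPKM or more, and 5 of the 10 were among them. At a Benjamini-Hochberg adjusted p under 0.01, 1642 of the tested genes (13%) differed, 704 (5.57%) with the higher value in the 2KR-MYB rescue and 938 (7.42%) with the higher value in the ANAA-MYB rescue. With upper quartile scaling that split was 949 against 792. Of the 5, THBS1 and RUNX1 were higher in the ANAA-MYB rescue and NFIB in the 2KR-MYB rescue, while ITGA2B and MEIS1 did not pass. THBS1 and NFIB passed the filter through the rescue in which they were higher, since each averaged under 1 FPKM in the other, and the count of 3 is therefore given as a description. The median difference of the 5 was -0.39, beside -0.02 over all tested genes. In a fit without the filter, none of the 10 passed 0.01 with limma (6 had an unadjusted p under 0.05) and 4 passed 0.05 (THBS1, NFIB, RUNX1 and PDGFA), against 10.2% of 28536 genes at 0.05. RAB27B, FYN, TSPAN5, AHSP, IL7R, DOP1B and ZDHHC21, named below, also passed the filter through the rescue in which they were higher. Each averaged under 1 FPKM in the other rescue, so their calls are likewise given as a description.

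Libraries of the 2 rescues did not overlap for 4 of the 5 tested genes (44.9% of all tested genes) and for 3 of the 5 others (15.7% of the genes that were detected but fell under the filter). With 3 libraries against 3, the design allows no exact permutation p below 0.1, and these 7 genes all had that value.

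THBS1 encodes thrombospondin 1, an adhesive glycoprotein stored in platelet alpha granules. The 2KR-MYB libraries had 0.907, 0.601 and 0.602 FPKM, and the ANAA-MYB libraries 2.08, 2.12 and 1.76 FPKM. Every ANAA-MYB library was above every 2KR-MYB library, and the ANAA-MYB mean (1.98 ± 0.199 FPKM, SD, n = 3) was 2.82 times the 2KR-MYB mean (0.703 ± 0.176). On log2(FPKM + 1), a scale that understates the change of a gene this low, the difference was -0.81 (95% interval -1.08 to -0.54, limma adjusted p = 0.0020). With each library left out it stayed between -0.90 and -0.77, and the call was lost without ANAA-MYB replicate 1 (adjusted p = 0.010) and without replicate 2 (adjusted p = 0.010).

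RUNX1, which as a dimer with CBFB binds DNA and is required for megakaryocyte maturation, differed less in proportion. Its values were 15.7, 14.9 and 13.4 FPKM in the 2KR-MYB libraries and 20.4, 19.0 and 19.3 FPKM in the ANAA-MYB libraries. No 2KR-MYB library reached the lowest ANAA-MYB library. The ANAA-MYB mean of 19.6 ± 0.719 FPKM was 1.33 times the 2KR-MYB mean of 14.7 ± 1.15 FPKM (SD, n = 3). The difference was -0.39 (95% interval -0.55 to -0.24, limma adjusted p = 0.0042). It ran from -0.44 to -0.33 with each library left out, and 4 of those 6 fits lost the call (without 2KR-MYB replicate 2, or without any of the 3 ANAA-MYB replicates), with an adjusted p of at most 0.019.

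NFIB, a nuclear factor I transcription factor, moved the other way. The 2KR-MYB libraries held 1.65, 1.76 and 1.55 FPKM and the ANAA-MYB libraries 0.760, 0.844 and 0.612 FPKM. All 2KR-MYB values were above all ANAA-MYB values. The 2KR-MYB mean of 1.65 ± 0.102 FPKM was 2.24 times the ANAA-MYB mean of 0.738 ± 0.117 FPKM (SD, n = 3), and the difference was 0.61 (95% interval 0.37 to 0.85, limma adjusted p = 0.0045). Each of the 6 fits with a library left out kept a value between 0.56 and 0.65 but lost the call, with adjusted p from 0.010 to 0.020.

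ITGA2B encodes integrin alpha IIb (CD41), which pairs with ITGB3 as the platelet fibrinogen receptor. Values of 1.31, 2.77 and 2.21 FPKM were found with 2KR-MYB, and of 3.25, 3.95 and 3.32 FPKM with ANAA-MYB. The groups did not overlap, but the 2KR-MYB libraries were widely spread (2.09 ± 0.735 against 3.51 ± 0.386 FPKM, SD, n = 3). The difference of -0.57 (95% interval -0.96 to -0.17) did not pass the 0.01 threshold (limma adjusted p = 0.042). Without 2KR-MYB replicate 1, the lowest library, it was -0.37.

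MEIS1, a homeodomain factor of stem and megakaryocyte progenitor cells, overlapped between the rescues. It had 1.54, 1.28 and 1.19 FPKM in the 2KR-MYB libraries and 1.28, 1.47 and 2.29 FPKM in the ANAA-MYB libraries. Only ANAA-MYB replicate 3 lay above all 2KR-MYB libraries. The difference of -0.18 (95% interval -0.53 to 0.17, limma adjusted p = 0.41) became -0.02 without that library.

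The 5 genes under 1 FPKM are described by their values, with the fit that had no filter. PDGFA encodes the A chain of platelet-derived growth factor, a mitogen carried in platelet granules. It had 0.630, 0.652 and 0.550 FPKM in the 2KR-MYB libraries and 1.37, 1.15 and 1.19 FPKM in the ANAA-MYB libraries. The ANAA-MYB libraries were all higher, by 2.02 times on the means, and the difference of -0.47 (95% interval -0.67 to -0.28) had an adjusted p of 0.020 with limma.

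CD9, a tetraspanin of the platelet membrane, had the higher values in the 2KR-MYB rescue. They were 0.616, 0.760 and 0.517 FPKM, against 0.311, 0.331 and 0.139 FPKM with ANAA-MYB. The groups lay apart, the ratio of means was 2.42, and the difference of 0.37 (95% interval 0.15 to 0.59) had a limma adjusted p of 0.055.

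PLEK encodes pleckstrin, the major protein kinase C substrate of platelets. It was low and nearly level, from 0.141 to 0.170 FPKM in the 2KR-MYB libraries and from 0.126 to 0.141 FPKM in the ANAA-MYB libraries. The lowest 2KR-MYB value was only just above the highest ANAA-MYB value, and the limma adjusted p was 0.49. CD36, a scavenger receptor that binds thrombospondin, ranged from 0.0212 to 0.109 FPKM and from 0.0204 to 0.116 FPKM, with full overlap. FLI1, the ETS factor that drives platelet glycoprotein genes, ranged from 0.0147 to 0.135 FPKM in the 2KR-MYB libraries. In the ANAA-MYB libraries it was at 0.00914 and 0.0829 FPKM and was listed at 0 in replicate 3. At these levels no difference in CD36 or FLI1 was detectable.

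**Figure D2:**
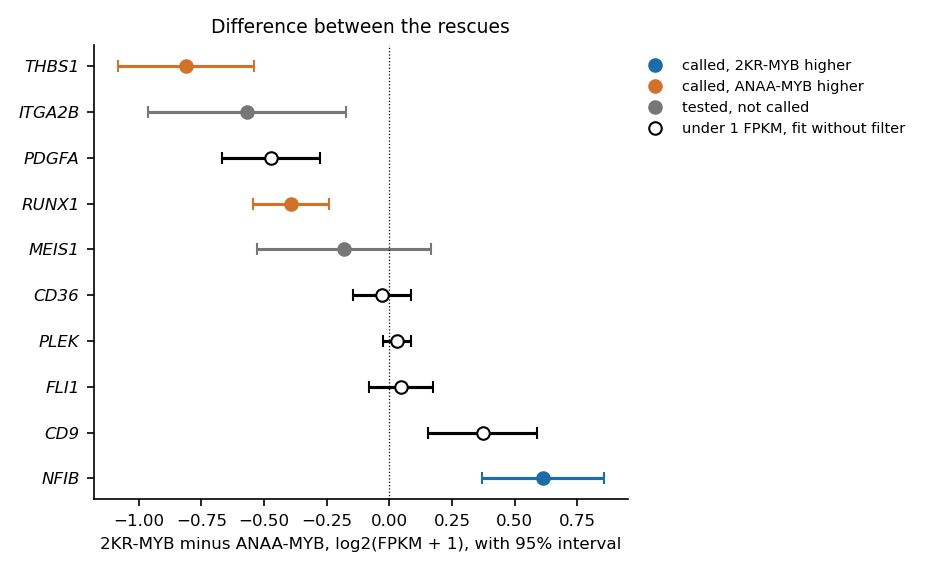
Difference between the rescues for each gene on log2(FPKM + 1), as points with 95% intervals; filled points are genes tested by limma and open points are genes under 1 FPKM from the fit without a filter. THBS1 at -0.81 and NFIB at 0.61 are the outermost points, and the intervals of MEIS1, CD36, PLEK and FLI1 include 0.

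Positions are those of RefSeq on GRCh38.p14. THBS1 spans chr15:39581079-39599466, RUNX1 chr21:34787801-35049302 and NFIB chr9:14081843-14532077. ITGA2B lies at chr17:44372181-44389649, PDGFA at chr7:497258-520700, CD36 at chr7:80602207-80679274, CD9 at chr12:6199946-6238266 and FLI1 at chr11:128685132-128813267. MEIS1 (chr2:66435125-66573869) and PLEK (chr2:68365282-68397453) are the only pair close together on a chromosome.

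MYB acts by binding DNA near the genes it controls, and the 250 bases upstream of the RefSeq start sites were therefore searched on both strands for the MYB words CAACNG and TAACNG. The words of other factors searched were AGATAA for GATA factors, CCGGAAG for ETS factors and TGTGGTT for RUNX factors. THBS1 and RUNX1 are shown because both were higher in the ANAA-MYB rescue, and MEIS1 as an example of a window with matches, given in capitals. THBS1 is chr15:39580829-39581078 (plus strand), RUNX1 is chr21:34888700-34888949 (minus strand, inside the gene, so it serves 1 internal start) and MEIS1 is chr2:66434875-66435124 (plus strand). All are written 5′ to 3′.
THBS1: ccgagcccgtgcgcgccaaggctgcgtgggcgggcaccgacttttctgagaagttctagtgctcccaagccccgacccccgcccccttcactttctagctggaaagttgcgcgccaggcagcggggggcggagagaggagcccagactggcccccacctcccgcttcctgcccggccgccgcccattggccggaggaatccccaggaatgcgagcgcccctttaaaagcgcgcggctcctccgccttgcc
RUNX1: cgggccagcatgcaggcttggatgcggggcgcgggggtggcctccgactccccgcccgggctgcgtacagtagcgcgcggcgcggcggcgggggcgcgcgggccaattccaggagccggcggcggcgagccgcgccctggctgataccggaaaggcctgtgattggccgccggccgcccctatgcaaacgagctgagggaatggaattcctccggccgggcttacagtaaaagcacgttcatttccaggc
MEIS1: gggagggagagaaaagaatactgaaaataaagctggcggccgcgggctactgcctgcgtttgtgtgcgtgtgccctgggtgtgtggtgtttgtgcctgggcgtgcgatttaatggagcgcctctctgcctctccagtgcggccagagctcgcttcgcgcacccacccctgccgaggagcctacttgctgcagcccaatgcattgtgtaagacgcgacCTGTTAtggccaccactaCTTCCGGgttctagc
Neither the THBS1 nor the RUNX1 window held any of these words. The MEIS1 window held a MYB word on the minus strand at -33 from the start site (read as CTGTTA on the plus strand) and an ETS word on the minus strand at -15 (CTTCCGG). PLEK held a MYB word, CAACTG, at -177 that overlaps a RUNX word at -173. Of all 35116 promoter windows, 39.3% held a MYB word in either form, 9.17% the GATA word, 8.52% the ETS word and 3.65% the RUNX word. The single ITGA2B window and all 4 windows each of PDGFA and CD9 held none, whereas MYB words occurred in some of the 10 NFIB and 6 CD36 windows. The CD36 window with the most held 4 MYB words. No window for FLI1 was analysed here. The words describe the sequence, and a match is not a binding site.

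Neighbouring genes were compared to see whether the 10 differed between the rescues along with the genes around them. The 5 tested genes on either side of each gene were taken (7 in all for PDGFA, near the chromosome end). Median differences of these neighbours lay between -0.15 (PDGFA) and 0.12 (CD36). Most neighbours had the sign of the gene for PDGFA (6 of 7 below 0), ITGA2B (7 of 10 below 0) and CD9 (7 of 10 above 0). Most had the other sign for THBS1 (6 of 10 above 0), RUNX1 (7 of 10 above 0) and NFIB (7 of 10 below 0). The same was seen for the weakly detected FLI1 (7 of 10 below 0) and CD36 (6 of 10 above 0). MEIS1 and PLEK each had 5 on either side of 0. The neighbours of THBS1 had a median of 0.02 and those of RUNX1 of 0.09, opposite in sign to the genes themselves, and those of NFIB had a median of -0.11 against 0.61 for NFIB. THBS1, RUNX1 and NFIB were picked because they passed the threshold, so their distance from the neighbours is a description. The neighbours of NFIB spanned 13.1 Mb.

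RASGRP1, next to THBS1, was higher in the 2KR-MYB rescue by 0.84 (adjusted p = 0.00049), as was RCAN1 next to RUNX1 by 0.49 (adjusted p = 0.0017). DOP1B, also near RUNX1, was higher by 0.61 (adjusted p = 0.0091), a call lost with any 1 library left out. ZDHHC21, next to NFIB, was higher in the ANAA-MYB rescue (-0.89, adjusted p = 0.0012). PRKAR1B-AS1 beside PDGFA had the same sign as PDGFA (-0.70, adjusted p = 0.0013). Near CD9, PARP11 was higher in the 2KR-MYB rescue (1.04) and LTBR lower (-0.37). UBTF near ITGA2B (-0.25) and SNX19 near FLI1 (0.31) also passed, the first lost with any 1 library left out and the second kept only without ANAA-MYB replicate 2. LTBR lost its call without 2KR-MYB replicate 2. No tested neighbour of MEIS1, PLEK or CD36 passed. These are limma values. Genes that overlap the 10 were all weakly detected, the highest being FSIP1 at THBS1 with a mean of 0.150 FPKM, and whether the counting used strand is not given in the sources used here.

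Relatives and partners of each gene were compared next. In the RUNX group, the partner CBFB tended the other way from RUNX1, with means of 48.3 FPKM under 2KR-MYB and 37.8 FPKM under ANAA-MYB (0.35, limma adjusted p = 0.013, not past the threshold). RUNX2 averaged 2.09 and 2.60 FPKM (adjusted p = 0.18). In the NFI family, NFIC had the higher level in the ANAA-MYB rescue (-0.32, adjusted p = 0.0068), opposite to NFIB, although its call was lost with any 1 library left out and with upper quartile scaling or quantile normalization. NFIA (-0.17) and NFIX (0.05) did not pass.

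Among the TALE homeodomain genes, which include MEIS1, PKNOX1 was higher in the 2KR-MYB rescue (7.07 against 5.47 FPKM, limma adjusted p = 0.0096), a call lost with any 1 library left out. MEIS2 was far more abundant than MEIS1, at 21.0 and 22.9 FPKM (adjusted p = 0.11). Of 16 tested ETS family genes, 3 were higher in the ANAA-MYB rescue and none in the 2KR-MYB rescue: ELK4 (-0.47), SPI1 (-0.42) and ERF (-0.27). The call of ELK4 held without any 1 library, that of SPI1 was lost without 2KR-MYB replicate 1 or ANAA-MYB replicate 1 or 3, and that of ERF was lost each time. This direction depended on the filter. In the limma fit without it, FEV (0.648 FPKM with 2KR-MYB against 0.0240, adjusted p = 0.0022) and ETS1 (0.266 against 0.0355, adjusted p = 0.0073) passed toward 2KR-MYB. There ELK4 and ERF kept their calls and SPI1 lost its call. ETV6, a further ETS factor of this lineage, did not pass (0.06, adjusted p = 0.64).

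Of 13 tested tetraspanins, 5 were higher in the ANAA-MYB rescue, where CD9 had its lower values, and 1 in the 2KR-MYB rescue. CD53 averaged 28.4 FPKM with 2KR-MYB and 73.9 FPKM with ANAA-MYB (-1.35, adjusted p = 2.5e-05 with limma). TSPAN5 averaged 0.953 and 3.78 FPKM (-1.29, adjusted p = 0.00014). CD151, a platelet tetraspanin, averaged 49.7 and 62.9 FPKM (-0.34, adjusted p = 0.0015). CD82, at 14.0 and 8.67 FPKM, had the opposite direction (0.63, adjusted p = 0.0036), with the call lost without 2KR-MYB replicate 1 or ANAA-MYB replicate 1 or 3.

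For the fibrinogen receptor, ITGB3 also had its higher values in the ANAA-MYB rescue. It had 3.11, 2.74 and 2.26 FPKM in the 2KR-MYB libraries and 4.19, 4.36 and 3.74 FPKM in the ANAA-MYB libraries. Again the groups lay apart without passing the threshold (-0.46, limma adjusted p = 0.014). None of the 6 tested integrin alpha chains passed with limma (3 had an unadjusted p under 0.05), among them ITGAV (0.20, adjusted p = 0.063) and ITGA5 (-0.14, adjusted p = 0.17). Among the thrombospondins and their receptors, TGFB1, which thrombospondin 1 can activate, was higher in the ANAA-MYB rescue (52.1 against 38.1 FPKM, -0.45, adjusted p = 0.0026), and it lost the call without 2KR-MYB replicate 2 or any 1 of the ANAA-MYB libraries. THBS3 (0.26, adjusted p = 0.095) and CD47 (-0.12, adjusted p = 0.20) did not pass. SCARB1, a relative of CD36, passed narrowly (-0.34, adjusted p = 0.0094), and the call was lost with any 1 library left out.

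A wider list of 123 other megakaryocyte and platelet genes placed the 10 in their programme. Of these, 94 were tested, and 28 (29.8%) passed, 21 toward ANAA-MYB and 7 toward 2KR-MYB, and the median difference was -0.09. Over all 12634 tested genes 13% passed, 7.42% toward ANAA-MYB and 5.57% toward 2KR-MYB. These shares also stand beside the counts of the single lists below. The lists were chosen with earlier results of these data known, so the counts are given as a description. Leaving out 1 library lowered the count to between 15 and 20. In these bulk samples a smaller number of cells of a type and less RNA per cell cannot be told apart.

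Of 20 tested transcription factors, 4 were higher in the ANAA-MYB rescue and none in the 2KR-MYB rescue. ETS1, also in this list, fell under the filter and passed toward 2KR-MYB only without it. GATA1, the master regulator of erythroid and megakaryocyte cells, had 79.0, 74.9 and 80.6 FPKM in the 2KR-MYB libraries and 111, 107 and 105 FPKM in the ANAA-MYB libraries. All ANAA-MYB libraries were above all 2KR-MYB libraries (-0.45, limma adjusted p = 0.00050). NFE2, which drives platelet release, averaged 69.1 and 91.7 FPKM (-0.40, adjusted p = 0.0014). Both calls held with each library left out. The call of GFI1B (-0.46) held only without ANAA-MYB replicate 2 or 3, and that of LDB1 (-0.27) only without 2KR-MYB replicate 3. GATA2 did not pass (-0.16, adjusted p = 0.039). MEF2C was listed at 6215 FPKM in ANAA-MYB replicate 3 and between 28.7 and 37.7 FPKM in the 5 other libraries. Without that library its difference was -0.21 (adjusted p = 0.14) in place of -2.70.

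Among 14 tested platelet surface receptors, FCGR2A, CD151 and F2RL3 were higher in the ANAA-MYB rescue and none was higher in the 2KR-MYB rescue. FCGR2A, the platelet receptor for immunoglobulin G, averaged 33.2 FPKM with 2KR-MYB and 55.6 FPKM with ANAA-MYB (-0.73, limma adjusted p = 0.00026). F2RL3, the thrombin receptor PAR4, averaged 2.34 and 4.03 FPKM (-0.59, adjusted p = 0.0080), with the call lost when any 1 library was left out. CD63 and ITGB1, the most abundant of the list, did not pass (0.10 and -0.18).

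Genes of granules and secreted proteins, the group to which THBS1 and PDGFA belong by function, passed in both directions. Of 16 tested, 5 were higher in the ANAA-MYB and 2 in the 2KR-MYB rescue. RAB27B, a GTPase of dense granule secretion, had 0.689, 0.633 and 0.524 FPKM in the 2KR-MYB libraries and 4.51, 3.89 and 4.68 FPKM in the ANAA-MYB libraries. Its means differed 7.09 times (-1.73, limma adjusted p = 3.4e-05). RAB27B passed the filter through the ANAA-MYB rescue, since its 2KR-MYB mean was 0.615 FPKM. SRGN, the proteoglycan that retains granule contents, averaged 155 and 253 FPKM (-0.70, adjusted p = 4.8e-05), and TIMP1 215 and 328 FPKM (-0.61, adjusted p = 0.00020). VEGFA and CLU were higher in the 2KR-MYB rescue, by 0.52 (adjusted p = 0.0013) and 0.86 (adjusted p = 0.0017), and the call of CLU was lost without the filter on low values.

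Cytoskeleton and signalling genes were also mixed. Of 20 tested cytoskeleton genes, 4 were higher in the 2KR-MYB and 3 in the ANAA-MYB rescue. FERMT3, the kindlin that activates platelet integrins, averaged 46.2 and 85.8 FPKM (-0.88, limma adjusted p = 8.4e-05), and TUBA4A averaged 49.1 and 69.5 FPKM (-0.49, adjusted p = 0.00026). TPM1 (0.58) and ZYX (0.30) were higher in the 2KR-MYB rescue, but with a library left out the first kept its call only without ANAA-MYB replicate 2, and the second only without 2KR-MYB replicate 3 or ANAA-MYB replicate 1. Of 24 tested signalling genes, 6 were higher in the ANAA-MYB rescue, VAV1 among them (-0.65, adjusted p = 0.00045). The 1 gene higher in the 2KR-MYB rescue was FYN, a SRC family kinase, at 7.34, 9.39 and 7.73 FPKM in the 2KR-MYB libraries and 0.676, 1.18 and 0.395 FPKM in the ANAA-MYB libraries (2.40, adjusted p = 7.6e-05).

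Over the 6 libraries, the pattern of THBS1 was most like those of CD151 (Pearson r = 0.992) and TIMP1 (0.986) among 156 tested genes of the other lists. RUNX1 was nearest to TIMP1 (0.982) and TGFB1 (0.979), and NFIB to FYN (0.996) and CLU (0.977). Since the libraries fall into 2 rescues, such values mainly restate the difference between them and are given as a description.

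The cells were checked against markers of the lineages. Of 10 genes that define megakaryocytes, GP9 and PF4 were listed at 0 in all 6 libraries, 3 were tested (ITGA2B, ITGB3 and GP6) and none passed with limma (2 had an unadjusted p under 0.05). The sum of these 10 markers ran from 7.10 to 8.58 FPKM in the 2KR-MYB and from 9.60 to 11.1 FPKM in the ANAA-MYB libraries. Within that sum, ITGA2B and ITGB3 had higher means with ANAA-MYB. GP6 (1.28 FPKM with 2KR-MYB and 1.26 with ANAA-MYB), TUBB1 (0.875 and 0.787), GP1BA (0.551 and 0.503) and PPBP (0.138 and 0.115) did not, and VWF was barely detected. The 19 erythroid markers summed to between 1946 and 2088 FPKM in the 2KR-MYB and between 2181 and 2628 FPKM in the ANAA-MYB libraries. Of 17 tested erythroid markers, KLF1 (-0.65), ANK1 (-0.56), GATA1 and TFRC (-0.29, held only without ANAA-MYB replicate 1 when a library was left out, and lost with upper quartile scaling or quantile normalization) were higher in the ANAA-MYB rescue, and AHSP (1.13) was higher in the 2KR-MYB rescue. The K562 label was thus borne out by erythroid transcripts, while 7 of the 10 defining megakaryocyte transcripts averaged under 1 FPKM.

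Markers of other blood and vessel cells were mostly under 1 FPKM. Of 12 granulocyte and monocyte markers, 10 were under 1 FPKM, and the 2 tested, LYZ (-0.99) and SPI1 (-0.42), were higher in the ANAA-MYB rescue. Their summed level ran from 27.8 to 30.3 FPKM in the 2KR-MYB libraries and from 43.2 to 46.4 FPKM in the ANAA-MYB libraries. Of 8 lymphoid markers, 3 were tested, CD3D (-0.89) being higher in the ANAA-MYB and IL7R (1.43) in the 2KR-MYB rescue. Without 2KR-MYB replicate 2 both calls were lost, and that of IL7R also without any 1 of the ANAA-MYB libraries. Of the endothelial markers EGFL7 alone was tested (-0.71) and CDH5 was listed at 0. The part of these shifts in the differences of THBS1, RUNX1 and NFIB was not tested.

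**Figure D3:**
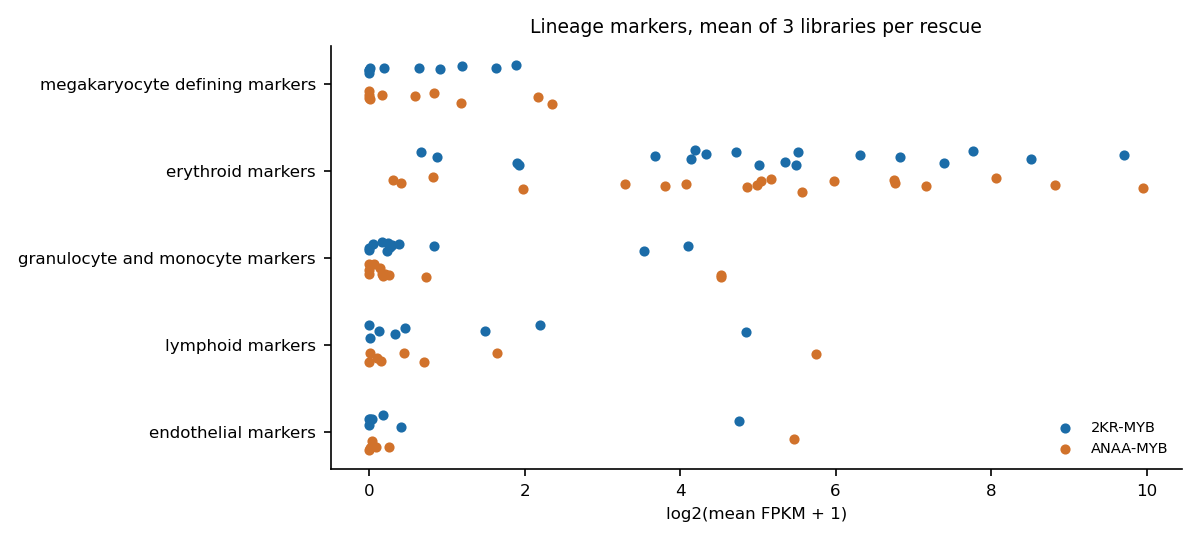
Mean level of each lineage marker in the 2KR-MYB (blue) and ANAA-MYB (orange) rescue as log2(mean FPKM + 1), 1 point per gene. Erythroid markers reach the highest levels, whereas the megakaryocyte markers stay low, with GP9 and PF4 at 0 in every library.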

How the data were processed

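K562 cells with a 2KR-MYB or an ANAA-MYB construct were profiled by stranded poly(A) RNA-Seq (150 bp paired ends), 3 libraries per rescue. Per the labels and the submitters' processing notes, reads were demultiplexed with bcl2fastq 2.18.0.12, trimmed with Trimmomatic 0.36, aligned to GRCh38 with TopHat2 2.1.1 and quantified with Cufflinks and Cuffdiff 2.2.1. The unit that the authors deposited is FPKM, 1 value for each gene and library. How genes were annotated, whether strand was used and how libraries were scaled is not given in the sources used here. FPKM values under 0.5 gave no step of whole reads (at most 7.40% of them within 1% of a step), so the depth is unknown and counts could not be tested. The table also held 12 columns of per-sample values that were not used.

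Of 58288 gene IDs, 55854 matched a symbol. The 12634 genes whose 6 libraries averaged 1 FPKM or more were fitted in R 4.3.3 with limma 3.58.1 (empirical Bayes with trend, on log2(FPKM + 1)), with Benjamini-Hochberg adjustment over all of them and a threshold of 0.01. The fit was tested on simulated data in which few genes were changed. It recovered 54% of changes of 0.5 and 84% of changes of 1 on log2(FPKM + 1). A gene that did not pass can therefore still differ. Single genes were also compared by a two-sided exact permutation test of FPKM. The 10 genes, MYB and the gene lists were chosen with earlier results of these data known. Besides them, the text names from each list up to 4 genes past the threshold with the smallest adjusted p and up to 2 with the highest mean, family members that averaged 1 FPKM or more, lineage markers, tested neighbours, overlapping genes and, for each of the 10 past the threshold, the 2 list genes with the highest Pearson r. FEV and ETS1 are named as well, from the fit without the filter. PECAM1 had no row by that symbol. Sequences and positions were those of RefSeq (GRCh38.p14). Alternatives were other pseudocounts (0.1, 0.01), quantile normalization, upper quartile scaling, no filter or one at 5 FPKM, a threshold of 0.05, a robust prior, omission of each library and a block for the replicate number. Figures were drawn with Python 3.11.15 and matplotlib 3.10.9.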

Additional observations from a re-analysis of the deposited data

How the results depend on the processing

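The count of genes past the threshold was 1642. It was 942 with no filter on low values, 1089 with the replicate block and 3402 at a threshold of 0.05, and between 831 and 1139 with 1 library left out. Of the 10 genes described, 3 passed. None passed with no filter (limma, 4 at an adjusted p and 6 at an unadjusted p under 0.05), where 28536 genes enter the adjustment, 1 with a mean of at least 5 FPKM, which leaves RUNX1 alone of the 3 among the tested genes, and between 0 and 2 with 1 library left out. The count was 3 with either other pseudocount, upper quartile scaling, quantile normalization and the robust prior. Of the other megakaryocyte and platelet genes, 28 passed, against 15 with no filter, 45 at a threshold of 0.05 and between 15 and 20 with 1 library left out. GP6, at 0.013 and not called, was the only tested gene named in the report to change sign, at -0.033 with quantile normalization and from -0.0060 to 0.038 with 1 library left out. Of 50 genes past the threshold that were followed through these settings (the named genes and further members of their lists), 27 kept the call with each library left out, none of the 10 among them. Upper quartile scaling and quantile normalization each ended the calls of LDB1, NFIC, SCARB1, TFRC and UBTF, upper quartile scaling alone those of F2RL3 and TSPAN31, and quantile normalization alone that of DOP1B. Of the genes that the report names as past the threshold besides the 10, the calls of AHSP, CD3D, CD82, CLU, DOP1B, F2RL3, GFI1B, IL7R, LDB1, NFIC, PKNOX1, PRKAR1B-AS1, SCARB1, SNX19, SPI1, TFRC, TGFB1, TPM1, UBTF and ZYX were lost with no filter, that of DOP1B with a pseudocount of 0.1 and that of PKNOX1 with a mean of at least 5 FPKM. CBFB passed with quantile normalization, the robust prior and the replicate block.

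The replicate numbers gave no sign of pairing: the deviations of same-numbered libraries correlated at -0.05, -0.04 and -0.003. With the replicate block 2 of the 10 genes passed, without NFIB (adjusted p = 0.014), and DOP1B, ERF, F2RL3, LDB1, NFIC, PKNOX1, SCARB1, SNX19, SPI1, TFRC and UBTF lost their calls, while 23 of the other megakaryocyte and platelet genes passed. Differences in genes under 1 FPKM are limited by a depth that is unknown, and each mutant was 1 clone.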
